A study of Mus musculus with 67 samples.

Results

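The genes described here were the chromatin regulators, meaning the SWI/SNF, ISWI and CHD remodellers, the enzymes that add or remove acetyl and methyl groups on histones, the DNA methyltransferases and the proteins that read these marks. They were chosen by gene symbol, from families named with earlier results of these data known. Of 4209 genes that a probe of the array names alone, 61 belonged to these families, and 78 probes measured them. For the 16 genes with several probes, the probe with the highest mean value represented the gene.

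The cerebral cortex of 67 C57BL/6 mice, 32 males and 35 females, was profiled with 1 filter array of spotted cDNA per sample, hybridised with radiolabelled cDNA. Mice fed ad libitum (AL) were taken at 17 to 21 days (5 mice), 33 to 44 days (5 mice), 6 months, 16 months and 24 months (10 mice each). Mice under caloric restriction (CR) were taken at 6 months (9 mice), 16 months (10 mice) and 24 months (8 mice); full feed was given until 13 weeks of age, then fortified feed at 90% and 75% of the ration for 1 week each, and at 60% from then on. The study asked how age, sex and diet alter expression in the central nervous system, and the same questions were put here to the chromatin regulators.

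In the nucleus, DNA is wrapped around histones, and access to it is set by remodellers that slide or evict nucleosomes and by chemical marks on histone tails and on cytosine. Acetyltransferases and deacetylases write and erase acetyl marks, methyltransferases and demethylases do the same for methyl marks, and proteins with bromodomains, chromodomains or PHD fingers bind them. In the cortex these proteins take part in neuronal differentiation, in the maturation of circuits after birth and in gene expression that depends on activity, and Sirt1 and the class I deacetylases are often discussed in relation to ageing and diet.

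All values are z-scores, in which each array has a mean of 0 and a standard deviation (SD) of 1, so differences are in units of the spread between genes on 1 array, and no fold change can be given. Of the 61 members, 29 had a mean z above 0. Because probes differ in how strongly they hybridise, the level of 1 probe was not set against that of another, and the highest and lowest means in each class are given only to place them on the scale. Among the 9 Smarc members, subunits of SWI/SNF and ISWI remodellers with the related helicase Smarcal1, the means ran from -1.81 for Smarca2, a catalytic ATPase, to 1.83 for Smarcb1, a core subunit. The 6 CHD remodellers ran from -0.84 for Chd6 to 1.10 for Chd9, and the ARID proteins from -1.16 for Arid1b to 0.23 for Arid4a. Acetyltransferases lay between -1.33 for Kat5 and 1.20 for Kat6a, and deacetylases between -1.10 for Hdac3 and 0.39 for Hdac11. The 10 lysine methyltransferases ran from -1.37 for Setd5 to 1.29 for Setdb1, and the 9 demethylases and JmjC proteins from -1.0 for Kdm2b to 2.02 for Kdm7a. Readers ran from -1.22 for Cbx1 to 0.17 for Cbx5, from -1.30 for Brd9 to 0.72 for Brd3, and from -0.30 for Phf14 to 1.54 for Phf7.

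The filters carried structure that the groups do not explain. The labels name no batch, but the first principal component of the values (48.1% of the variance) shifted at array number 46, which splits the arrays into 45 earlier and 22 later ones without overlap on that component. Between earlier and later arrays, 36 members differed by more than 0.2 within groups. The share of all probes beyond that cut was not counted, so the number is no result about the members. This split, found in the values, took a median of 34.1% of a member's variance, against 29.2% over all probes, and reached 87.5% for the demethylase Kdm5a (-1.25, later minus earlier) and 90.2% for the heterochromatin protein Cbx5 (-0.946). In the layout inferred from the order of the probes (16 blocks of 24 rows and 22 columns), values also ran in gradients over the filter, and subtracting the local trend around each spot removed 35.3% of the variance within the earlier and later arrays. The arrays of the 16 months AL group labelled male replicate 2 and female replicate 2 were almost the same (r = 0.99975, against 0.989 for the next pair) although their labels give different sexes. Their mean counts as 1 sample wherever sexes are pooled (n = 9), while the fit keeps each in its labelled sex. For 1 array, labelled 24 months AL male replicate 2, the description and the title do not match. In bulk cortex, fewer cells of a type and less RNA per cell cannot be told apart. Of the marker lists, the arrays name 1 of 15 neuronal genes (Nefl), 3 of 10 astrocyte and 2 of 12 oligodendrocyte genes. They also name 4 of 13 microglial, 5 of 11 blood, 5 of 13 choroid plexus and meninges, and none of 10 endothelial genes. The labelled tissue could therefore be checked against few of its defining markers.

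Sequences are shown for the upstream regions of Jmjd6 and Smarcd2, the members with the smallest p-values among adult and among young mice. They were picked as a pair that differs in CpG content, so their contrast is selected. The choice of the 61 members by symbol did not use CpG content. Of the 61 members, 48 have an entry in the RefSeq promoter set (GRCm38.p6), which covers 300 bases, 250 before and 50 after the start of transcription. The median number of CpG dinucleotides in these windows was 26 for the members and 7 over all 27025 promoters, and the median GC content was 64.5% against 52.7%. The motif GGGCGG, on either strand, was present in 79.2% of members' promoters and 35.9% of all promoters. CCGGAAG was present in 22.9% and 9.12%, and CCAAT in 39.6% and 37.9%. All promoters here are those of the RefSeq set, and the promoters of the other genes on the array were not counted apart. These contrasts therefore cannot tell the members from the genes on the array as a whole. The Jmjd6 window (chr11:116843400-116843699, minus strand) holds 33 CpG and the Smarcd2 window (chr11:106267583-106267882, minus strand) holds 4. In both, capitals mark these motifs on either strand, and in Jmjd6 a CCAAT and its reverse complement ATTGG overlap.
Jmjd6: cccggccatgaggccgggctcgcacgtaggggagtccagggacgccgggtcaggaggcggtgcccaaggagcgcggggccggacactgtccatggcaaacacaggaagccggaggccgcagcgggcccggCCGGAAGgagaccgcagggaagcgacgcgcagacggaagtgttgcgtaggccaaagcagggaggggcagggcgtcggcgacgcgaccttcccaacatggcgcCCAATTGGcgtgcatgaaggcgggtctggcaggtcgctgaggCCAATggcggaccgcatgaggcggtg
Smarcd2: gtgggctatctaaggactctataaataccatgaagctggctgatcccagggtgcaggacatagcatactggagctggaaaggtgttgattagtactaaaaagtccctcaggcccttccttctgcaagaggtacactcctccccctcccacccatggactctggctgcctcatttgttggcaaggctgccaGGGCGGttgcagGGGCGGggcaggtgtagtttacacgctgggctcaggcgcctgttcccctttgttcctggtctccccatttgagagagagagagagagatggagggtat
Expression arrays do not measure binding at these letters, so they are a description of the genes.

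The first comparison asked which regulators change between the weanling and the adolescent cortex. From 17-21 to 33-44 days, 35 members had a higher and 26 a lower mean, with a median difference of 0.042 against 0.0033 over all probes. None of the 61 passed an adjusted p of 0.05 in the limma fit across all 8448 probes, in which 0.0947% of probes passed. At an unadjusted p under 0.05, 10 members passed (16.4%, against 14% of all probes), 8 of them lower and 2 higher at 33-44 days. Leaving out 1 array moved this count from 2 (without female replicate 2 at 33-44 days) to 21 (without female replicate 1 at 33-44 days). Differences ran from -0.55 for Kdm5a to 0.53 for the reader Phf20, and 45.9% of members differed by more than 0.2 in either direction, against 38.5% of all probes. Both extremes also shifted with the split of the arrays. It took 87.5% of the variance of Kdm5a (-1.25, later minus earlier) and 49.1% of that of Phf20 (0.725). Later arrays occurred only in the 33-44 day group.

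The smallest p belonged to Smarcd2, an accessory subunit of SWI/SNF complexes. At 17-21 days its z-scores were -0.47 and -0.56 in males and -0.69, -0.81 and -0.47 in females. At 33-44 days they were -1.05, -0.69 and -1.12 in males and -0.76 and -1.30 in females. The older arrays were lower as a set, but 2 of them lay within the range of the younger ones. The difference was -0.41 ± 0.101 (SE, 95% interval -0.61 to -0.20, limma adjusted p = 0.0590).

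Arid4a, a retinoblastoma-binding protein of the Sin3 corepressor complex, came next. Its z-scores were 0.37 and 0.27 in males and 0.90, 0.20 and 0.40 in females at 17-21 days, and -0.05, 0.37 and -0.28 in males and 0.19 and -0.15 in females at 33-44 days. The difference was -0.39 ± 0.101 (SE, limma adjusted p = 0.0627), and the groups overlapped. Both demethylases with the next smallest p, Phf8 and Kdm5b, were also lower, by 0.43 ± 0.151 and 0.36 ± 0.132 on the z scale (limma adjusted p = 0.204 and 0.234). Phf8 removes repressive and Kdm5b activating methyl marks. Kdm5b spanned 0.89 to 1.18 in the younger and 0.26 to 1.13 in the older mice. The other unadjusted passes were Phf6, Brd9, Brd3 and the acetyltransferase Kat2b (lower, -0.21 to -0.33), and the SWI/SNF core subunit Smarcc1 and ATPase Smarca4 (higher, 0.255 and 0.28), all with limma adjusted p of 0.277 or more.

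**Figure D1:**
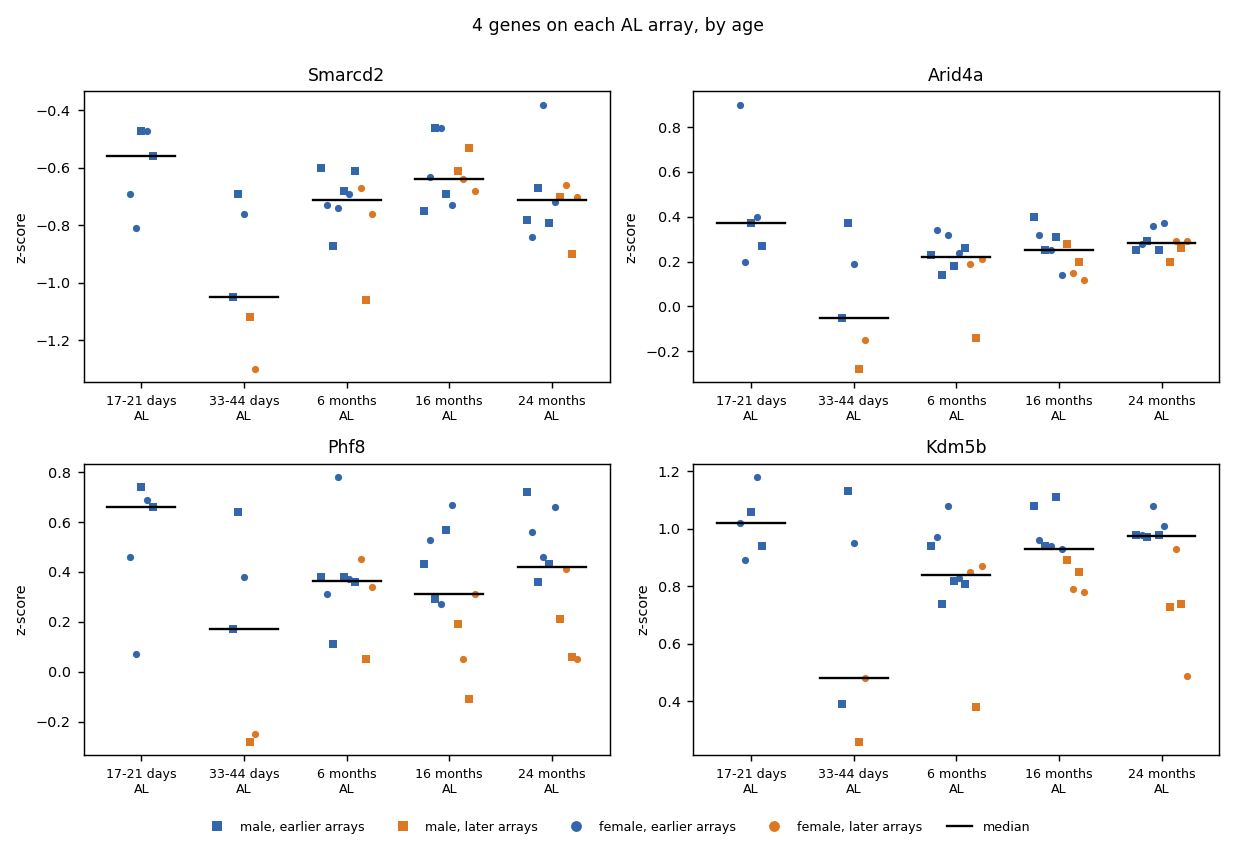
z-score on each AL array (vertical axis) of Smarcd2, Arid4a, Phf8 and Kdm5b by age group (horizontal axis); squares are males and circles females, blue the earlier and orange the later arrays. At 33-44 days the lowest Smarcd2 values, -1.12 and -1.30, are both from the later arrays.

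The 5 arrays at 17-21 days were all among the earlier ones, whereas 2 of the 5 at 33-44 days were among the later ones, and these gave the lowest values of Smarcd2 (-1.12 and -1.30), Arid4a (-0.28 and -0.15), Phf8 (-0.28 and -0.25) and Kdm5b (0.26 and 0.48, beside 0.39 on an earlier array). Within the earlier arrays the differences were smaller, -0.23 ± 0.115 (SE) for Smarcd2, -0.235 ± 0.101 for Arid4a and -0.16 ± 0.145 for Phf8 (limma adjusted p of 0.915 or more). With the split as a block, Smarcd2 (-0.37) and Arid4a (-0.32) passed at an adjusted p of 0.0485 in limma, together with 70 probes in all. Position on the filter moved with the same comparison. The median difference of all probes was -0.212 in filter row 2, -0.210 in row 6 and 0.228 in row 24, and Smarcd2 and Arid4a both lay in row 6 and column 8 of their blocks. All 8 members that were lower at an unadjusted p under 0.05 lay in rows 1 to 7, and both that were higher lay in rows 19 and 20. Around Smarcd2, 21 of 24 neighbouring spots had the same sign (median -0.209), and around Arid4a 18 of 24 did (median -0.184). With the local trend removed, the differences were -0.220 and -0.223 (limma adjusted p = 0.605).

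The outcome depended on single arrays. Without 33-44 days AL female replicate 1, 5 members passed the adjusted threshold (Smarcd2 -0.54, Arid4a -0.48, Kdm5b -0.48, Brd9 -0.39 and Phf8 -0.59), as did 441 probes. Without 33-44 days AL male replicate 2, 4 of these passed, all but Brd9, among 214 probes, and without 17-21 days AL female replicate 2, Smarcd2 and Arid4a did, among 72 probes. Leaving out any of the other 7 arrays, no member passed. Without 33-44 days AL female replicate 2, a later array, the difference was -0.27 for Smarcd2, -0.31 for Arid4a and -0.275 for Phf8 (limma adjusted p = 0.994), and 0 probes passed. The summed z of the 5 blood genes was 0.27 to 0.72 at 17-21 days and -1.25 to 0.65 at 33-44 days, and its part in these differences was not tested. No member separated the groups without overlap, and 0.947% of all probes did.

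From 33-44 days to 6 months, none of the 61 members passed the adjusted threshold, nor did any probe (0%). At an unadjusted p under 0.05, 3 members passed (4.92%, against 5.31% of all probes). Smarcd2 and Arid4a had differences of 0.25 ± 0.087 and 0.18 ± 0.087 (SE, limma adjusted p = 0.777 and 0.929), opposite in sign to those of the preceding interval, which shares the 33-44 day arrays. At 6 months Smarcd2 ran from -1.06 to -0.60 with a median of -0.71. Chd7, a CHD remodeller of neural development, had a difference of -0.29, but at 33-44 days 1 male lay at 1.01 and the other 4 mice between -0.68 and -0.49.

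Over adult life, the JmjC-domain oxygenase Jmjd6, which hydroxylates lysines of splicing factors, had the smallest p among the members at 16 against 6 months, under either diet. In AL mice its z-score had a lowest, median and highest value of -0.02, 0.105 and 0.36 at 6 months, of -0.25, -0.07 and 0.07 at 16 months, and of -0.13, 0.045 and 0.27 at 24 months. In CR mice these values were 0.00, 0.14 and 0.35 at 6 months, -0.30, -0.06 and 0.30 at 16 months, and -0.25, -0.045 and 0.37 at 24 months. In both diets the 16 month median lay below the lowest 6 month value, while the ranges overlapped.

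The AL difference between 16 and 6 months was -0.23 ± 0.067 (SE, 95% interval -0.36 to -0.09) and the CR difference -0.19 ± 0.070 (-0.33 to -0.06). Neither passed after adjustment over all probes in limma (adjusted p = 0.999 and 1.00). Over both diets, a comparison added after these values were seen, the difference was -0.21 ± 0.048 (SE, limma unadjusted p = 6.07e-05, adjusted p = 0.513). At 24 against 16 months the AL difference was 0.17 ± 0.067 (limma adjusted p = 0.646) and the CR difference 0.06. Neighbouring spots moved less than Jmjd6 (medians -0.023 in AL and -0.069 in CR), and with the local trend removed the difference over both diets was -0.174. Within the earlier arrays it was -0.176.

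The other Jmjd6 probe on the array did not share this pattern. Its lowest, median and highest values in AL mice were -1.78, -1.36 and -1.03 at 6 months and -1.46, -1.29 and -1.12 at 16 months, a difference of 0.11 ± 0.097 (SE, limma adjusted p = 0.999). The CR difference was 0.01. With the mean of each group among the earlier or later arrays subtracted, the probes correlated with r = 0.26. That step does not remove filter structure that the arrays share. Without it, r over all arrays was 0.041. Across the 17 pairs of probes for 1 member, the sign was shared in 5 to 10 pairs, depending on the comparison.

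**Figure D2:**
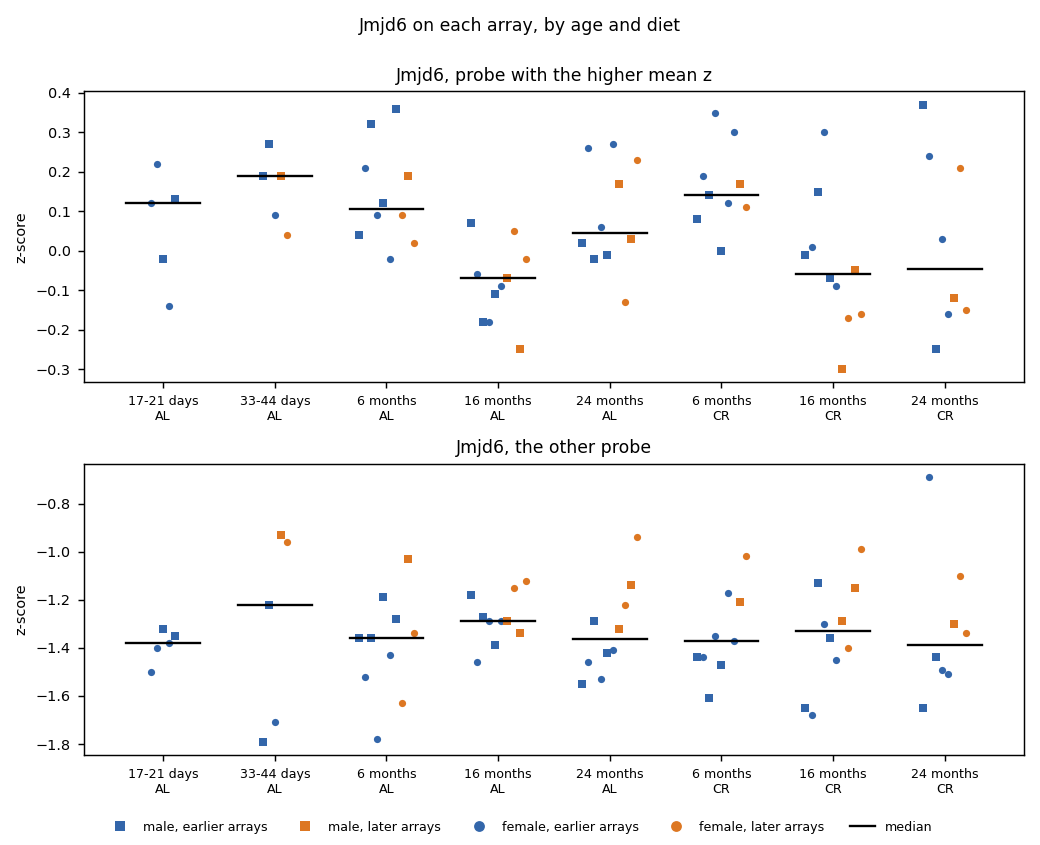
z-score of each Jmjd6 probe (vertical axes) on every array, in the 8 sets of age and diet (horizontal axis); squares are males, circles females, blue the earlier and orange the later arrays, and bars are medians. The main probe had medians of 0.105 and -0.07 at 6 and 16 months in AL mice, and the other probe -1.36 and -1.29.

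In AL mice, no member passed the adjusted threshold at 16 against 6, 24 against 16 or 24 against 6 months, and 0% of probes did. At an unadjusted p under 0.05, 3 members passed in each of these (4.92%), against 3.04%, 6.57% and 2.89% of all probes. The median difference over the members was -0.011, 0.012 and 0.022, against 0.002, -0.004 and 0 over all probes. No member's 24 month arrays lay entirely apart from its 16 month arrays, and 0.0237% of all probes did so.

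At 24 against 16 months the demethylase Kdm7a was lower, with a lowest, median and highest z-score of 1.86, 2.05 and 2.16 at 16 months and 1.44, 1.99 and 2.08 at 24 months. The difference was -0.17 ± 0.064 (SE, limma adjusted p = 0.646), and -0.11 without 24 months AL female replicate 5. The 14 spots around Kdm7a had a median of -0.127, and with the local trend removed its difference was -0.03. The other Kdm7a probe differed by 0.03 ± 0.090. Hdac2, the class I deacetylase tied to memory in mice, ran over -0.06, 0.26 and 0.48 at 16 months and -0.23, 0.13 and 0.28 at 24 months. Its difference of -0.16 ± 0.077 (limma adjusted p = 0.749) lay beside a neighbour median of -0.136, with all 14 spots lower, and was -0.03 with the local trend removed.

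Against 6 months, Dnmt3a, which methylates neuronal DNA after birth, was higher at 24 months in AL mice. Its values were -0.24, 0.155 and 0.44 at 6 months and 0.11, 0.275 and 0.46 at 24 months, so the ranges overlapped widely. The difference was 0.15 ± 0.073 (limma adjusted p = 1.00), the 24 neighbouring spots were all higher (median 0.139), and 0.02 was left with the local trend removed. The X-linked PHD finger protein Phf6 differed by 0.13 between 16 and 6 months and by 0.12 between 24 and 6 months, and Smarca5, the ISWI ATPase, by 0.11 between 16 and 6 months (limma adjusted p = 0.999 or more for each). All 9 Smarc members, Smarcal1 included, had a higher mean at 24 than at 6 months in AL mice, by 0.014 to 0.079, where 49.8% of all probes were higher. All 5 PHF proteins were higher too, as were 63.9% of the 61 members. Over both diets 4 of the 9 Smarc members and 4 of the 5 PHF proteins were higher.

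As a slope over the AL adults' days of age, 2 members passed an unadjusted p of 0.05 (3.28%, against 2.81% of all probes) and none passed after adjustment, as for all probes (0%). The slopes were 0.0229 ± 0.00996 (SE) z per 100 days for Phf6 and 0.0270 ± 0.0122 for Dnmt3a (limma adjusted p = 0.999), and 0.00165 and 0.00356 with the local trend removed.

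**Figure D3:**
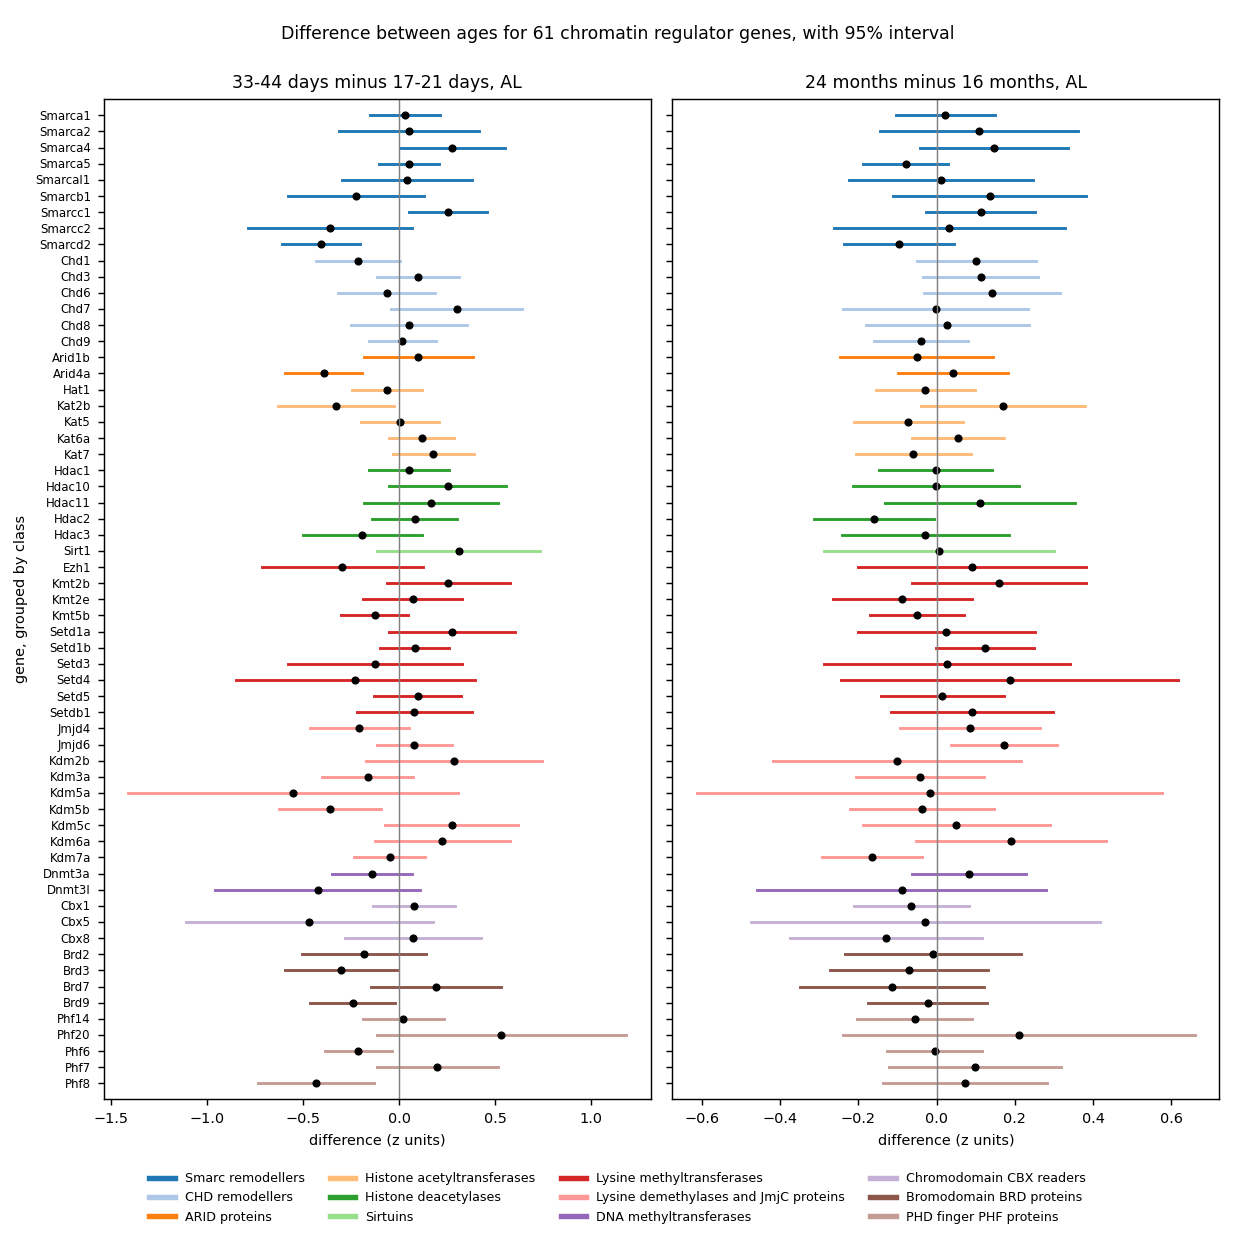
Difference in z-score with its 95% interval (horizontal axis) for the 61 members (vertical axis, coloured by class), for 33-44 against 17-21 days and for 24 against 16 months in AL mice. The juvenile differences spread from -0.55 to 0.53 and those between 16 and 24 months from -0.17 to 0.21. The juvenile groups held 5 arrays each, with later arrays only at 33-44 days. Their intervals were wider, with a median half-width of 0.284 against 0.197.

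Under CR, 1 member passed an unadjusted p of 0.05 at 16 against 6 months (Jmjd6, above) and 1 at 24 against 16 months, or 1.64% in each, against 2.33% and 4.15% of all probes. None passed after adjustment (0% of all probes). The latter was the remodeller Chd1, at -0.48, -0.275 and 0.01 at 16 months and -0.18, -0.075 and 0.14 at 24 months. Its difference was 0.18 ± 0.082 (SE, limma adjusted p = 0.999), beside a neighbour median of 0.132, and was 0.06 with the local trend removed. The other Chd1 probe was not higher, with CR means of -1.151 at 16 months and -1.256 at 24 months.

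With both diets averaged, again a set of comparisons added after the values were seen, 3 members passed an unadjusted p of 0.05 at 16 against 6 months (4.92%, against 4.63% of all probes), 6 at 24 against 16 months (9.84%, against 10.1%) and 1 at 24 against 6 months (1.64%, against 6.12%). None passed after adjustment. The 6 at 24 against 16 months were Kdm7a (lower, -0.12) and Chd1, Jmjd6, Kdm6a, Kat2b and Chd6 (higher, 0.11 to 0.20). Kdm6a, an X-linked demethylase that erases the Polycomb mark, had medians of -0.225, -0.12 and 0.01 at 6, 16 and 24 months in AL mice and -0.19, -0.11 and 0.09 in CR mice. Each of these groups spanned at least the range from -0.17 to 0.37.

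Here the treatment of array order decided the calls. The array numbers run through the groups in 5 successive cycles, and with the cycle as a block Kdm6a (0.20, limma adjusted p = 0.0118) and Kdm7a (-0.13, adjusted p = 0.0264) passed at 24 against 16 months over both diets, among 298 probes. With cycle and split as blocks, Kat2b passed too (0.16, limma adjusted p = 0.0230), among 488 probes. With the local trend over the filter removed, Kdm7a differed by -0.005 and no member passed. For Kdm6a at 24 against 6 months, the difference was 0.22 ± 0.091 (SE, limma adjusted p = 0.782), 0.098 with the local trend removed, and all 24 spots around it were higher.

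The next comparison asked whether CR shifts these regulators. Averaged over 6, 16 and 24 months, none of the 61 members passed an unadjusted or adjusted p of 0.05, against 0.71% and 0% of all probes. The largest of the differences in either direction were 0.08 (the bromodomain protein Brd3) and -0.07 (Smarcal1, a helicase of stalled replication forks). The median was -0.006 over the members, and the 95% intervals reached a median of 0.118 to either side. For a typical member, an observed difference within that reach does not pass even an unadjusted p of 0.05. The smallest true difference that could be detected was not computed. At 6, 16 and 24 months taken singly, no member passed either, where 0.462%, 1.03% and 1.04% of probes passed unadjusted.

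At 6 months, Smarca5 had the smallest p, with a lowest, median and highest value of 0.59, 0.67 and 0.95 in AL and 0.67, 0.81 and 0.97 in CR mice. The difference was 0.11 ± 0.056 (SE, 95% interval -0.001 to 0.223, limma adjusted p = 1.00). The other Smarca5 probe had means of 0.474 in AL and 0.464 in CR mice at 6 months. Around the main probe, 22 of 24 neighbouring spots were also higher in CR (median 0.038). The nearest others were Hat1, an acetyltransferase of new histones (0.12), and Smarcd2 (0.13). The other Hat1 probe had means of -0.320 in AL and -0.322 in CR mice. At 16 months, Chd3, the ATPase of a deacetylase complex, differed by 0.10, Setd5 by -0.08 and Kat6a by 0.06, and all 3 had the opposite sign in the later arrays alone. At 24 months, Smarcal1 ran over -1.0, -0.445 and -0.06 in AL and -1.08, -0.77 and -0.08 in CR mice, a difference of -0.22 ± 0.127 (limma adjusted p = 1.00). Of the 61 members, 22 had a higher mean in CR at this age (36.1%, against 48.3% of all probes), with a median of -0.027 against -0.003 over all probes, and -0.0045 without 24 months CR male replicate 1. The 3 CR males at 24 months were 673 days old and the AL males 714 to 743 days, so diet and age in days cannot be told apart in males at that age.

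**Figure D4:**
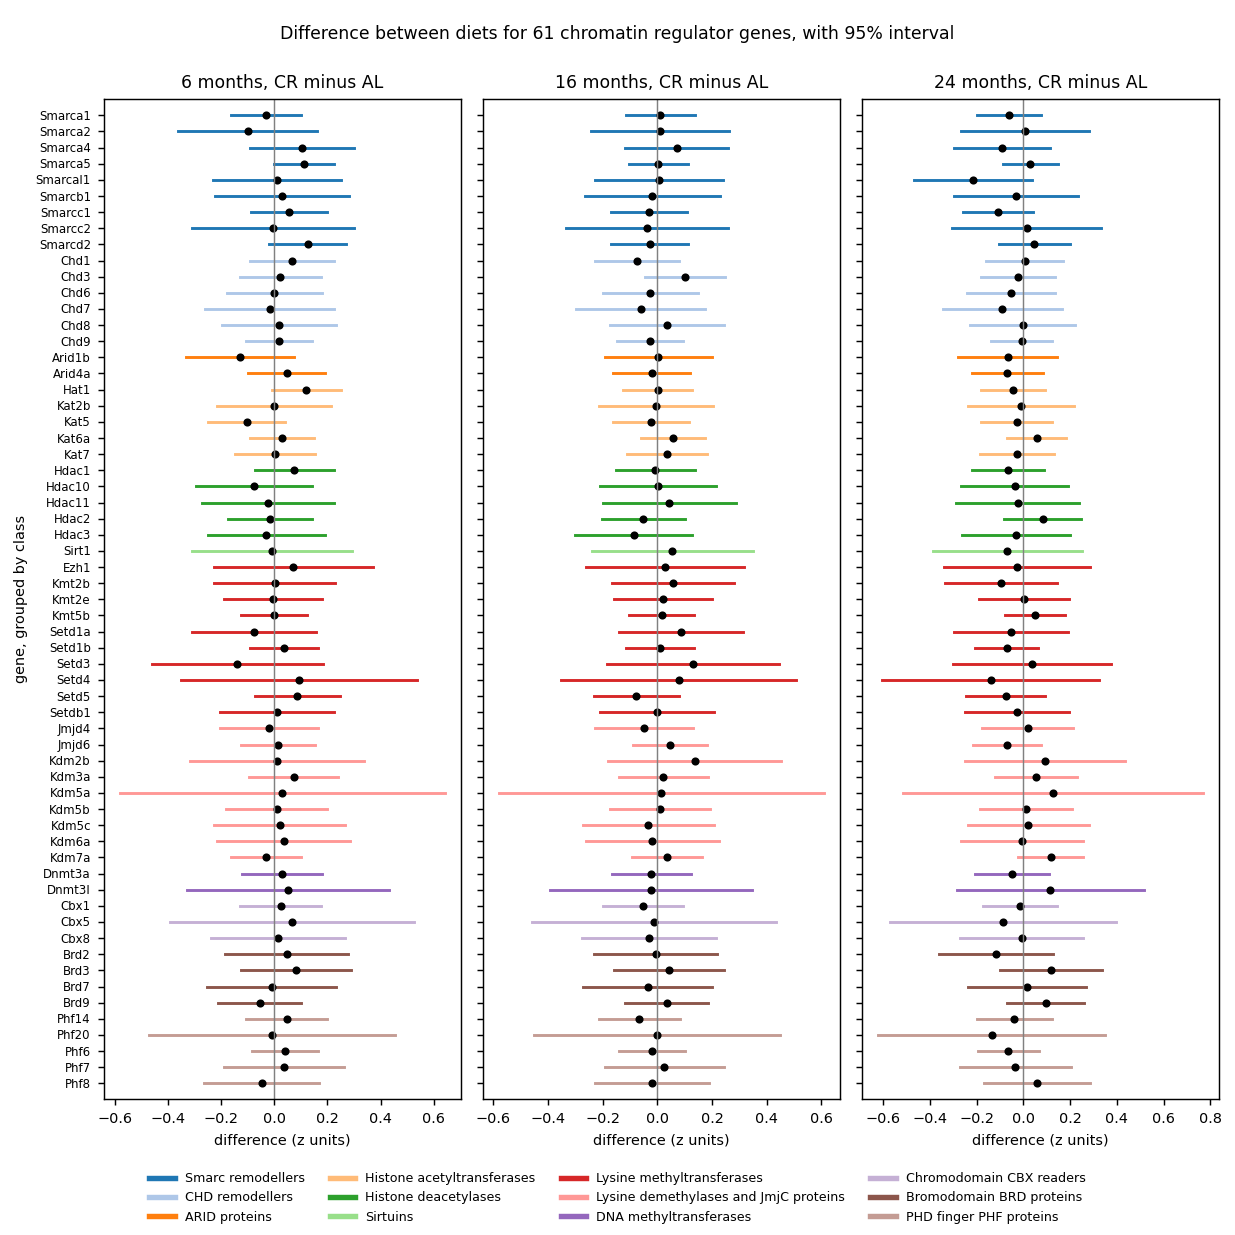
CR minus AL difference in z-score with its 95% interval (horizontal axis) for the members (vertical axis) at 6, 16 and 24 months. No interval excludes 0 among the members, whose differences ran from -0.22 to 0.14.

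The deacetylases, the sirtuin and the DNA methyltransferases were examined whole, since they are classes often linked to age and diet. Sirt1, which couples deacetylation to NAD, had medians of -0.21, -0.13 and -0.28 in AL and -0.31, -0.29 and -0.30 in CR mice at 6, 16 and 24 months. Its difference between diets over the 3 ages was -0.008 (95% interval -0.184 to 0.169) and that between 24 and 16 months in AL mice 0.006 (-0.288 to 0.300). Between diets over the 3 ages, Hdac1 differed by 0.0004, Hdac2 by 0.005, Hdac3 by -0.05, Hdac10 by -0.04 and Hdac11 by -0.002. At 24 against 16 months in AL mice, the members other than Hdac2 differed by -0.002 (Hdac1), -0.03 (Hdac3), -0.001 (Hdac10) and 0.11 (Hdac11). Dnmt3l, a catalytically inactive partner of the methyltransferases, differed by 0.05 between diets and Dnmt3a by -0.01. From 17-21 to 33-44 days, Sirt1 differed by 0.31 and Dnmt3l by -0.42 (limma adjusted p of 0.414 for the latter). Neither passed an unadjusted p of 0.05. Sirt1 lay in filter row 24, where the median of all probes in this comparison was 0.228. Its later minus earlier difference was 0.268, and of the young groups only that at 33-44 days held later arrays. The part of this structure in the 0.31 was not tested. The split of the arrays explained 85.6% of the variance of Dnmt3l.

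Sex was compared over the 8 sets of age and diet. No member passed an unadjusted or adjusted p of 0.05, against 0.592% and 0% of all probes, and the 95% intervals reached a median of 0.113 to either side. Kdm5c, Kdm6a, Phf8, Phf6 and the ISWI ATPase Smarca1 lie on the X chromosome, and Kdm5c and Kdm6a are known to escape its inactivation. Kdm5c ran over 0.92, 1.36 and 1.88 in females and 0.75, 1.42 and 1.93 in males, a female minus male difference of -0.01 (95% interval -0.15 to 0.13). Kdm6a ran over -0.51, -0.15 and 0.53 in females and -0.54, -0.06 and 0.46 in males (-0.06, -0.20 to 0.08), and Phf8 over -0.25, 0.41 and 0.92 against -0.28, 0.35 and 0.74 (0.01, -0.11 to 0.13). Phf6 ran over -0.48, -0.14 and -0.01 in females and -0.49, -0.215 and -0.01 in males (0.03, -0.04 to 0.10), and Smarca1 over -0.88, -0.43 and -0.28 against -0.69, -0.425 and -0.21 (-0.01, -0.09 to 0.06). The smallest p belonged to Hdac1 (0.05 ± 0.041 SE), Brd3 (-0.07) and Chd7 (-0.08), each with a limma adjusted p of 1.00. The Y-linked Kdm5d was not among the genes named by the probes.

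**Figure D5:**
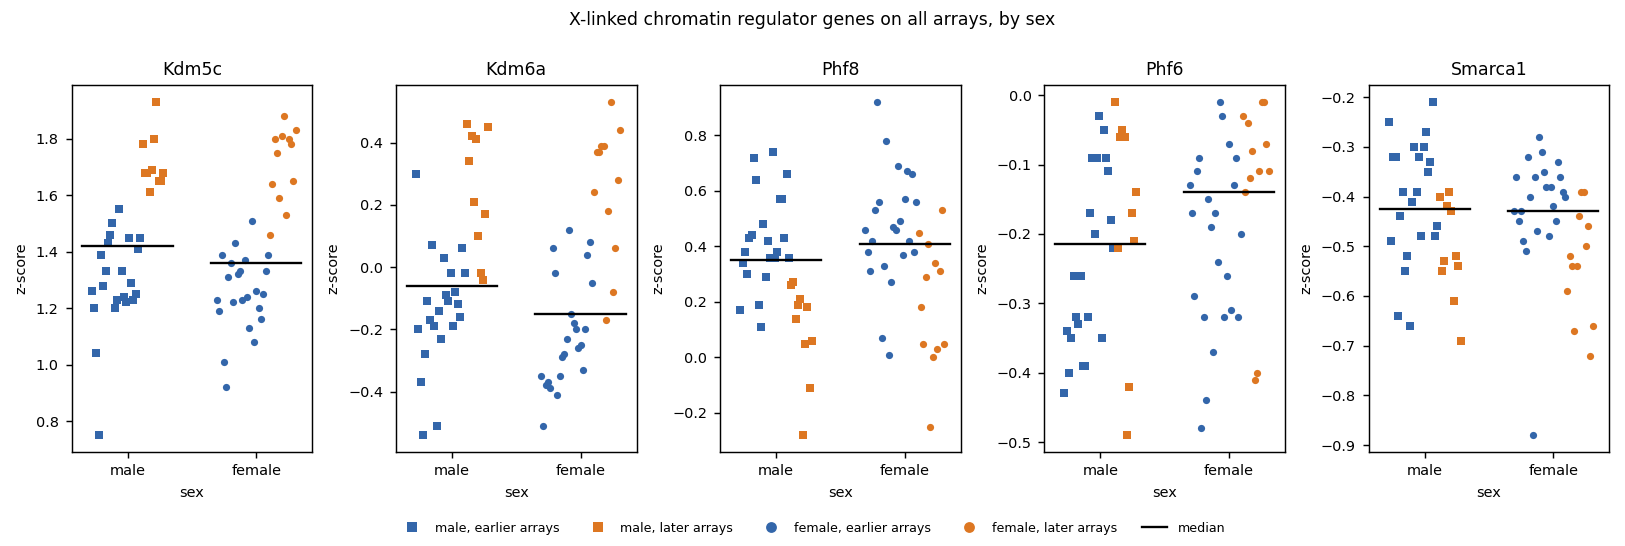
z-score of the X-linked members Kdm5c, Kdm6a, Phf8, Phf6 and Smarca1 on each array (vertical axes) in males and females (horizontal axis); blue marks the earlier and orange the later arrays, and bars are medians. The ranges overlapped almost wholly, with medians of 1.36 and 1.42 for Kdm5c in females and males.

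Differences between differences were tested in the same fit. For diet by age (24 against 16 months), sex by age in AL mice and sex by diet over 3 ages, no member passed an unadjusted or adjusted p of 0.05. Of all probes 0.888%, 0.0947% and 0.651% passed unadjusted. The members with the smallest p were Smarcal1 for diet by age (-0.22 ± 0.172), Arid4a for sex by age (0.16 ± 0.140) and Arid1b, a SWI/SNF subunit of neurodevelopmental disease, for sex by diet (0.22 ± 0.118).

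The first steps of the study's own selection, a mean z above 0, a z-ratio beyond 1.5 and an unadjusted p under 0.05, were applied to the same values. The study's further test of ages, sexes and diets was not applied. The p in these steps came from an ordinary linear model of the compared groups alone, not from the limma fit used above. For Smarca5 between diets at 6 months it was 0.030 in that model, against 0.0514 unadjusted in limma. These steps chose Jmjd6 at 16 against 6 months in AL mice (z-ratio -2.33) among 0.414% of probes. At 24 against 16 months they chose Jmjd6 (1.64) and Hdac2 (-1.53) among 2.04% of probes. They chose no member at 24 against 6 months (1.5% of probes), Smarca5 for CR against AL at 6 months (1.59, among 0.343% of probes), and none at 16 or 24 months (0.118% and 0.485%).

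Beyond the families, 69 partner genes in 8 lists were examined, namely partners in the Polycomb, SWI/SNF, deacetylase and methyltransferase complexes and in DNA methylation, further acetyltransferases, histone chaperones and remodellers, and histones with HMG proteins. None passed the adjusted threshold in any comparison. At 24 against 16 months in AL mice, 1 of the 69 passed unadjusted (1.45%, against 6.57% of all probes), Pbrm1, a polybromo subunit of SWI/SNF complexes, with a difference of 0.26. The smallest p in the other lists belonged to Asxl2 (-0.17), Gatad2b (0.18), Ash2l (-0.17), Msl1 (0.18), Mbd1 (-0.16), Anp32e (-0.21) and Macroh2a2 (0.12). From 17-21 to 33-44 days, 5 partners were higher and 7 lower at an unadjusted p under 0.05, or 17.4%, against 14% of all probes.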

How the data were processed

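The deposited values are z-scores, made by the authors from the signals of radiolabelled cDNA on mouse 17K filters (set B) by a z score transformation of each array. No source used here gives the log base or the background treatment, and since the scale is relative, a change shared by most genes does not appear in it. The table holds 8448 probes, and 4875 of them name 1 gene. The number of arrays limits precision.

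A mean for each of 16 groups of age, diet and sex was fitted to all 67 arrays with limma 3.58.1 in R 4.3.3, sexes weighted equally. Tests were two-sided and moderated, with Benjamini-Hochberg adjustment over all probes and a threshold of 0.05. The fit was checked on simulated arrays that had neither the split nor the gradients over the filter. That check therefore does not cover their effect on the calls. The members and lists were chosen with earlier results of these data known. Named genes are those passing in a comparison, or else the 3 with the smallest p, the extremes of each class and all DNA methyltransferases, sirtuins and deacetylases. The local trend is the median, over the surrounding 5 by 5 spots of a filter block, of an array's deviations from each probe's mean among the earlier or the later arrays. The 5 cycles were read from the array numbers, and the split into earlier and later arrays from the values, as no label gives it. Further alternatives included quantile normalization, median centring and leaving out each array. P-values measure the spread between arrays.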

Additional observations from a re-analysis of the deposited data

Results flagged for a closer look

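In 184 sets of values (23 named members in 8 age and diet sets), 18 held a value that stood apart by Dixon's criterion, or 9.78%. The criterion is set to flag about 1 in 20 sets of independent, normally distributed values. These members were named from the same values, and the share over all probes was not computed, so no excess is shown. The 18 values fell on 14 members. At 17-21 days these were Arid4a (0.90) and Smarcal1 (0.07) in female replicate 1, and Dnmt3a (-0.07), Smarcc1 (0.21) and Kat6a (1.3) in female replicate 2. At 33-44 days it was Chd7 (1.01) in male replicate 1. At 6 months in AL mice they were Arid4a (-0.14), Smarca5 (0.95) and Smarcal1 (-0.02) in male replicate 5 and Hat1 (-0.14) in female replicate 4, and in CR mice Arid4a (-0.16) and Brd3 (0.22) in female replicate 5. At 16 months they were Kdm7a (2.36) and Smarcc1 (-0.40) in CR males and Chd3 (-1.20) in the mean of the near-identical AL arrays. At 24 months they were Smarcd2 (-0.38) and Arid1b (-1.78) in AL females and Phf8 (0.92) in a CR female. No difference between differences passed the adjusted threshold.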

How the results depend on the processing

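Over the alternatives other than leaving out arrays, 230 of 238 counts of members passing the adjusted threshold were unchanged. Of 232 medians, 230 moved by less than 0.063, the SD of the members' median between replicates. The main medians were themselves at most 0.042 in size, so one could fall to 0 and still count as unmoved. The count of 230 therefore does not show that the medians held. The sign of the medians was not compared. Of 672 values of named members, 659 kept their call and direction. Of 232 counts of members with an unadjusted p under 0.05, 96 moved by over 1.5 times, or between none and some. With the earlier and later arrays as a block, 2 members passed at 33-44 against 17-21 days and 1 at 24 against 16 months over both diets. With the cycle as a block, 2 members passed at 24 against 16 months (among 298 probes) and 1 at 24 against 6 months (among 26), over both diets. With both blocks 3 members passed at 24 against 16 months over both diets, among 488 probes. The study's selection gave 1, 2 and 1 members (16 against 6 and 24 against 16 months in AL mice, and CR at 6 months). With probes of mean z above 0 alone, the medians were -0.049 (33-44 against 17-21 days) and 0.063 (24 against 16 months, both diets). Leaving out 1 array moved the juvenile count of members from 0 to 5 and their median from -0.034 to 0.097. Signs turned in the later arrays alone for Chd3 (-0.085), Setd5 (0.030) and Kat6a (-0.053) between diets at 16 months, and for Chd3 without the near-identical arrays (-0.0038). With the local trend removed they turned for Kdm7a at 16 against 6 months in CR (-0.021) and Dnmt3a at 24 against 6 months over both diets (-0.0016, and -0.0039 with both blocks), and for Phf6 at 24 against 6 months in AL mice with both blocks (-0.00053). The cause was not tested. Over all probes the juvenile count was 8, against 70 with the earlier and later arrays as a block, 21 with both blocks, 1 with the cycle and 0 with the local trend removed, and at 24 against 16 months in AL mice 0 against 54 with the cycle and 92 with both blocks. The labels carry no replicate numbers, so the cycles were the nearest to a matched fit.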
